A study of Homo sapiens with 12 samples.

Results

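The response of glucocorticoid (GC)-resistant MM1R myeloma cells to withaferin A (WA) was read from 6 of the 12 RNA sequencing libraries of the study, namely those whose labels name MM1R as the cell line. They comprise 3 cultures exposed to 1 µM WA for 3 h and 3 untreated cultures. Each WA culture has an untreated counterpart of the same passage number, 4, 6 or 7. MM1R is a multiple myeloma line that no longer responds to GC, and MM1S is its GC-sensitive sister line, which supplied the other 6 libraries under the same scheme. All cultures were grown in RPMI-1640 medium with FBS and antibiotics. MM1R is a single line, so that the replicates are cultures of different passage and not different patients. The controls are labelled untreated, and no solvent control is named, so that WA and its solvent cannot be told apart.

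WA is a steroidal lactone from Withania somnifera that binds covalently to cysteine thiols of many proteins. Agents of this kind are known to engage the heat shock response, in which HSF1 turns on chaperone genes when unfolded proteins accumulate, and the NRF2 pathway, in which KEAP1 senses electrophiles through its cysteines and releases NRF2 to its target genes. The integrated stress response, in which ATF4 is translated after phosphorylation of eIF2 alpha, is a further route by which proteotoxic or oxidative stress reaches the transcriptome. Myeloma cells secrete large amounts of immunoglobulin and depend on the plasma cell factor IRF4 and on MYC.

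The 6 libraries held between 17625110 and 18748156 counted reads (median 18286425). All 12 plasma cell markers examined were expressed, and of 8 mature B cell markers 5 stayed at or under 3 reads in every culture, among them MS4A1 and PAX5, whereas CR2 had 516 to 781 reads and EBF1 and BLK 3 to 19 reads. The passage 7 pair showed the most large changes with WA. Among the genes tested, 912 were at least 2-fold higher and 294 at least 2-fold lower with WA in the passage 7 pair, against 439 and 114 in passage 4 and 359 and 125 in passage 6. Where the call of a gene named below was lost without the passage 7 pair, this is stated beside it. Leaving out any pair also leaves fewer cultures. Of 161 named genes that were called, 82 kept their call without the passage 7 pair. Without the passage 6 pair 93 did, and without the passage 4 pair 123 did. A lost call alone thus does not single out passage 7. Levels below are CPM, read counts scaled to the size of each library, that is, shares of a library, so that fewer cells expressing a gene and less of its RNA per cell cannot be told apart.

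WA changed 1973 of 14085 tested genes in MM1R cells (14.0%) at an adjusted p under 0.05 in edgeR (quasi-likelihood F-test, Benjamini-Hochberg), with 3 cultures in either group. Of these, 1063 were higher (7.55%) and 910 were lower (6.46%). Counts of called list members below are to be read against these shares. The fit leaves out the pairing by passage, and calls below come from it unless another fit is named. Increases were larger than decreases, since 464 genes rose and 129 fell by more than 2-fold, 148 rose and 11 fell by more than 4-fold, and 55 rose and 3 fell by more than 8-fold. The median log2 fold change was 0.90 among higher genes, -0.62 among lower genes and 0.01 among all tested genes. Every called gene moved in the same direction in the 3 pairs of cultures, as did 8177 of all 14085 tested genes. The untreated and WA cultures did not overlap for 1054 of the higher and 901 of the lower genes, whereas 4687 of all tested genes (33.3%) showed no overlap. With passage number as replicate block, 4094 genes passed (29.1%), 2066 higher (14.7%) and 2028 lower (14.4%), among them all 1973. Counts of list members with passage as block are to be read against these larger shares. Only 639 of 14371 tested genes passed without both cultures of passage 7 (418 higher, 221 lower) and 645 without both of passage 6. Counts of list members without the passage 7 pair are to be read against these smaller totals. Leaving out a single library gave 950 genes without the untreated culture of passage 6, 1215 without that of passage 7, 1074 without the WA culture of passage 7 and 1297 without that of passage 4.

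**Figure D1:**
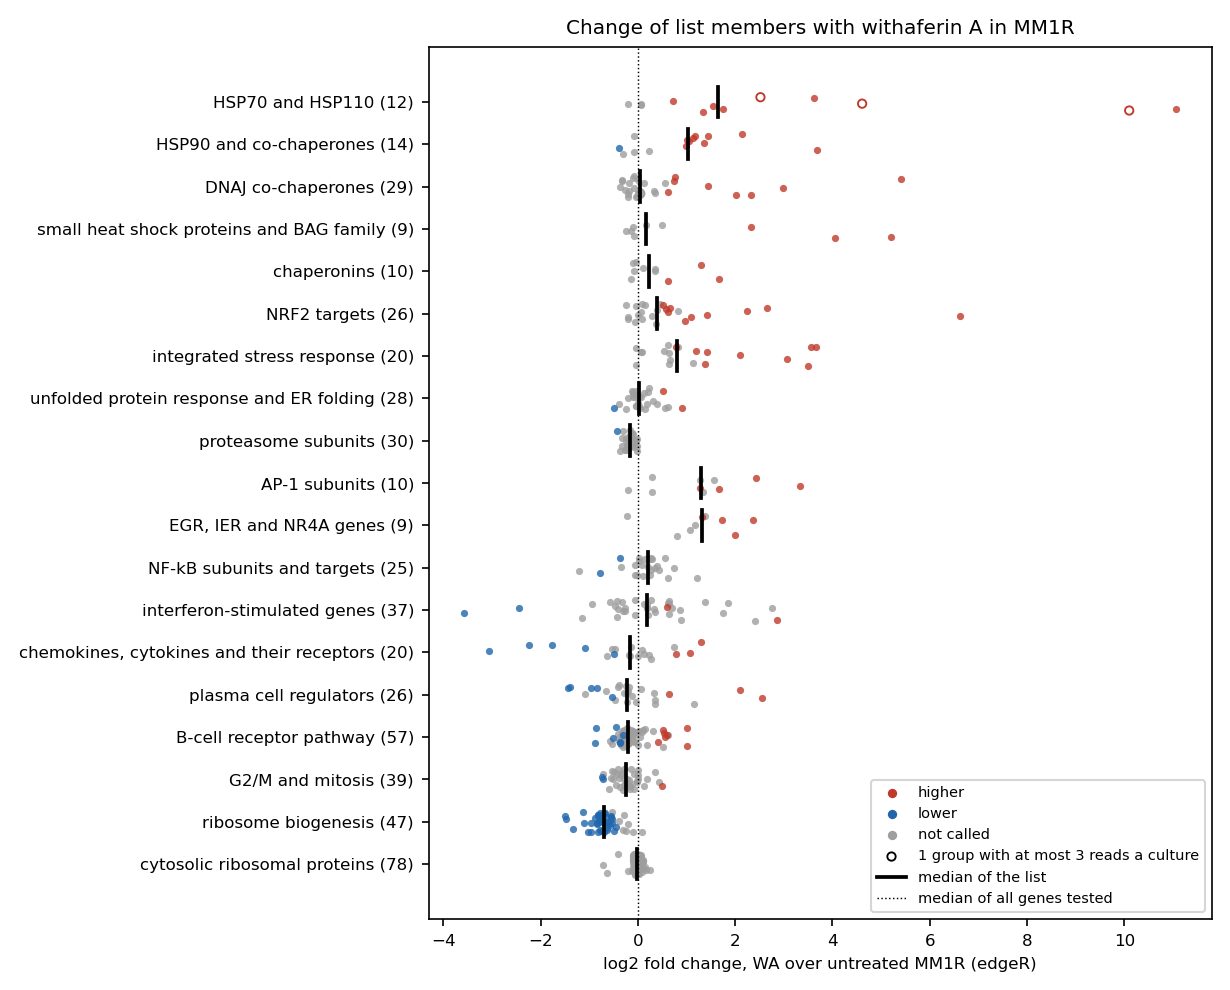
Log2 fold change with WA in MM1R (horizontal axis, edgeR) of the tested members of 19 gene lists (number of members in brackets). Points are genes, red where higher, blue where lower and grey where not called, open circles are genes with at most 3 reads in every culture of 1 group (drawn at their fitted value, which is no bound), black bars are list medians and the dotted line is the median of all genes tested. Chaperone lists reach furthest to the right, and the ribosome biogenesis genes lie together left of the dotted line.

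The heat shock genes held several of the largest fold changes, although most members of some of these lists were not called. Of 12 tested genes for HSP70 and HSP110 chaperones, which fold nascent and damaged proteins, 9 rose and none fell, with a median log2 fold change of 1.65. HSPA6, a stress-inducible HSP70 encoded by 1 exon on the plus strand of chromosome 1 (161494330 to 161496684, GRCh37), was nearly silent in untreated cells. It was at 1.09, 1.81 and 1.34 CPM in the untreated cultures of passages 4, 6 and 7 and at 1849, 1847 and 5470 CPM with WA. The passage 7 culture lay highest and the groups were far apart, with a log2 fold change of 11.07 (SE 0.79, edgeR adjusted p = 2.4e-06). HSPA7, a close copy of HSPA6 that is counted among the 9, is annotated as an unprocessed pseudogene. It had at most 1 read in each untreated culture and 295, 321 and 798 reads with WA, which is at least 166-fold higher. Because the copies are nearly identical, reads of HSPA6 may have been counted on HSPA7, and its own level is uncertain.

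HSPA1A and HSPA1B encode the same inducible HSP70 protein and cannot be separated by short reads. The table holds them under several entries each, and the 5 entries named HSPA1B together had 88, 110 and 86 reads in the untreated and 8242, 8715 and 14050 reads in the WA cultures of passages 4, 6 and 7, a ratio of 114 in mean CPM. No read in the untreated cultures and 1, 4 and 7 reads in the WA cultures fell on the 5 entries named HSPA1A. HSPH1, the HSP110 that recharges HSP70 with ATP, rose from 132, 135 and 127 CPM to 1225, 1398 and 2211 CPM in the order of passages 4, 6 and 7 (log2 fold change 3.62, SE 0.21, edgeR adjusted p = 5.4e-07). The rise of HSPH1 was thus seen in each pair, and it was among the 5 genes with the smallest p.

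HSP90 and its co-chaperones, which mature kinases and steroid receptors, followed. Among 14 tested genes, 9 rose and 1 fell (median log2 fold change 1.03). HSP90AA1, the inducible cytosolic HSP90, was at 496, 606 and 785 CPM in untreated cells of passages 4, 6 and 7 and at 6003, 7415 and 11001 CPM with WA. The groups did not overlap (log2 fold change 3.69, SE 0.24, edgeR adjusted p = 1.4e-06). The constitutive HSP90AB1 rose less, by a log2 fold change of 1.45 (SE 0.15, edgeR adjusted p = 6.1e-05). CHORDC1, a zinc-binding HSP90 partner, rose by 2.15 (SE 0.32, edgeR adjusted p = 7.3e-04).

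DNAJ proteins deliver clients to HSP70. The 29 tested DNAJ genes split, since 8 rose, none fell and the list median was 0.04. DNAJB1, the main DNAJ partner of HSP70 under stress, was at 142, 180 and 165 CPM in untreated cells and at 3978, 4999 and 11618 CPM with WA in passages 4, 6 and 7, a log2 fold change of 5.40 (SE 0.47, edgeR adjusted p = 1.4e-05). DNAJB4 and DNAJB2 rose by 2.98 (SE 0.37) and 2.33 (SE 0.20). In contrast, 21 tested DNAJ genes did not pass.

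Small heat shock proteins hold unfolded proteins in a soluble state, and BAG proteins release HSP70 from its clients. Of 9 tested genes 3 rose and none fell. BAG3, which links HSP70 to autophagy, went from 56.1, 57.0 and 50.1 CPM to 1292, 1551 and 3200 CPM in passages 4, 6 and 7 (log2 fold change 5.21, SE 0.37, edgeR adjusted p = 2.4e-06). HSPB1, also known as HSP27, rose by 4.06 (SE 0.45, edgeR adjusted p = 9.4e-05). HSPB8, a partner of BAG3, rose from 7, 9 and 4 reads to 16, 30 and 51 reads in passages 4, 6 and 7, and this call was lost without the passage 7 pair.

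Of the 10 chaperonin genes, 3 rose and none fell. HSPD1 and HSPE1, which form the mitochondrial HSP60 and HSP10 folding chamber, rose by log2 fold changes of 1.66 (SE 0.20) and 1.29 (SE 0.34, not called without the passage 7 pair), and TCP1, a subunit of the cytosolic chamber, by 0.61 (SE 0.13). The transcript of HSF1 itself did not pass the test (log2 fold change -0.17, SE 0.21, edgeR adjusted p = 0.65), and its 4.58 to 6.31 CPM in untreated cells overlapped with 4.67 to 4.99 CPM under WA. HSF2, a related factor, fell by 0.46 on the log2 scale (SE 0.12, edgeR adjusted p = 0.024), a call that was lost in 8 of 9 leave-outs of a library or pair.

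The promoters of the heat shock genes were read for the heat shock element, the binding motif of HSF1, defined here as the triplets GAA, TTC and GAA on either strand with any 2 bases between neighbours. RefSeq promoter sequences, from 250 bases before to 50 bases after a gene start, were found for 29 of the 32 heat shock genes that rose, and 5 of the 29 (17.2%) held the element. Among all 27305 promoters of the table it was found in 133 (0.487%). None of the 38 promoters found for heat shock genes that were not called held it. A match is a description of letters and no evidence of binding, and its absence in this window says nothing about the factor. Below are stretches around the element of HSPA6 (chr1:161494221-161494303, plus strand, 109 to 27 bases before the start) and CHORDC1 (chr11:89956220-89956312, minus strand, 95 to 3 bases before the start), placed on GRCh37 by exact match, with the matched letters in capitals and, in CHORDC1, 3 overlapping matches.
HSPA6: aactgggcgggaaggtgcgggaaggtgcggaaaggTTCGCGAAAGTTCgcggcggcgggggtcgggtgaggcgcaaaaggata
CHORDC1: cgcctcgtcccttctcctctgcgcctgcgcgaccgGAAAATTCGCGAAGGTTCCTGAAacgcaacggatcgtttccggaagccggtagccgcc

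**Figure D2:**
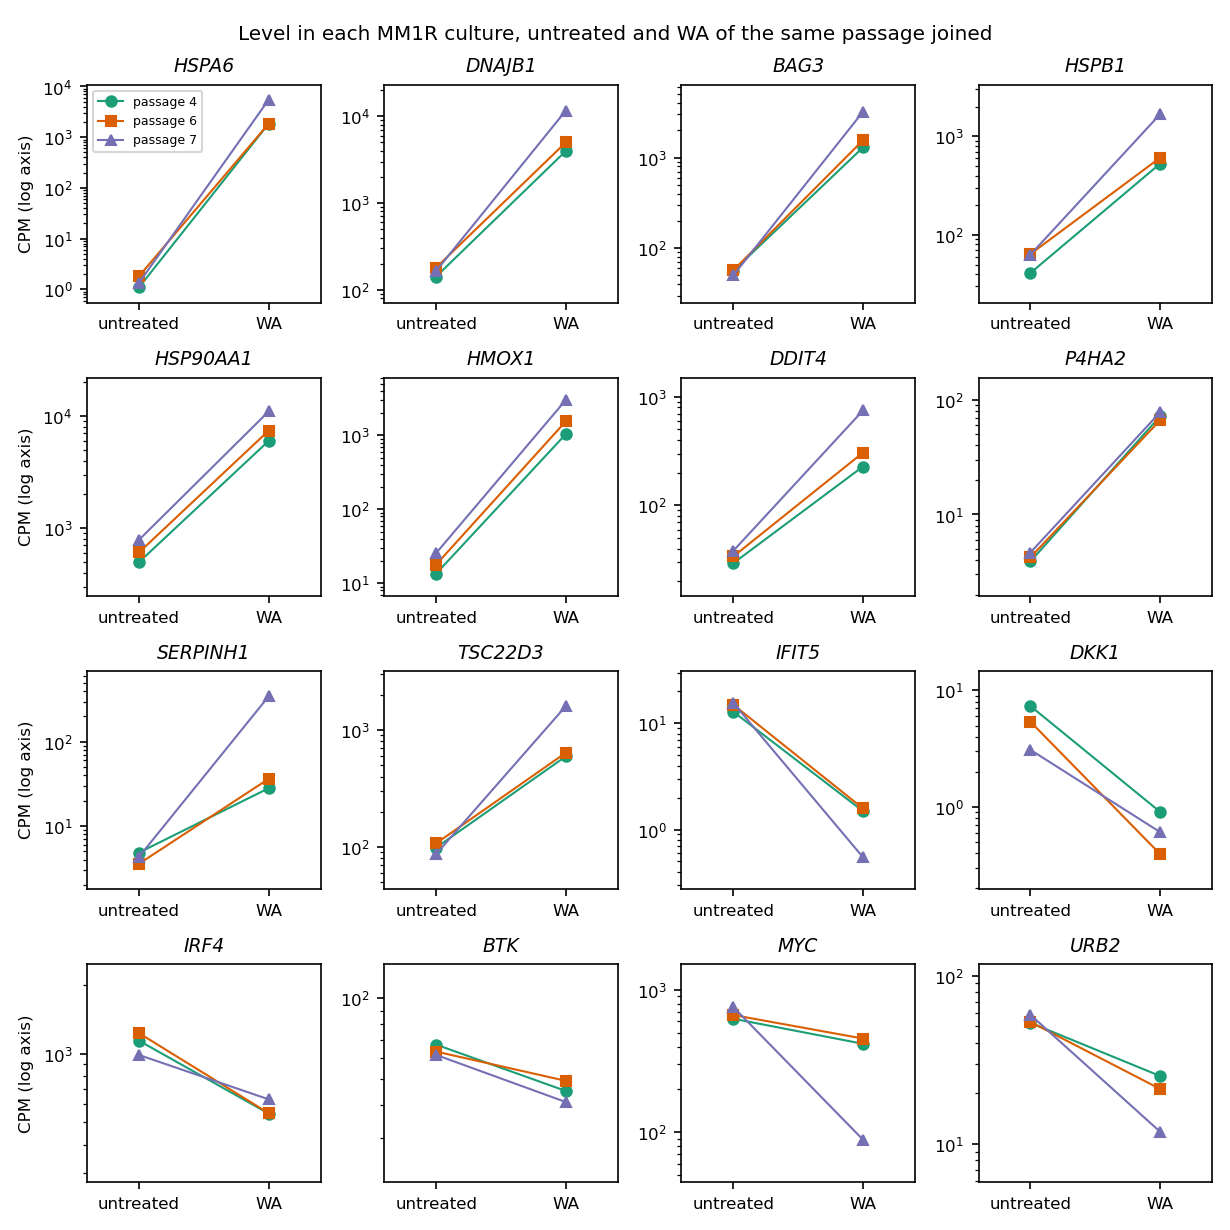
CPM on a log axis of 16 genes in each MM1R culture, where every line joins the untreated and the WA culture of 1 passage (circle 4, square 6, triangle 7). HSPA6 climbs from at most 1.81 CPM to at least 1847 CPM in each pair, and the passage 7 line is the steepest in most panels, such as SERPINH1 and MYC, but not in P4HA2, DKK1 or IRF4.

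NRF2 targets defend against oxidants and electrophiles. Among 26 tested genes 10 rose and none fell, with a median log2 fold change of 0.39. HMOX1, which encodes the heme-degrading enzyme heme oxygenase on chromosome 22 (35776354 to 35790207, plus strand, GRCh37), exceeded all others of the list. Its level was 13.5, 17.9 and 25.6 CPM in the untreated and 1040, 1547 and 3005 CPM in the WA cultures of passages 4, 6 and 7. The groups were apart in each pair (log2 fold change 6.62, SE 0.54, edgeR adjusted p = 9.3e-06). OSGIN1, an oxidative stress-induced growth inhibitor, rose by 2.65 (SE 0.26, edgeR adjusted p = 2.6e-05), and SLC7A11, the cystine importer that feeds glutathione synthesis, by 2.25 (SE 0.44, edgeR adjusted p = 0.0044). Without the passage 7 pair, 8 of the 26 rose, and the call of SLC7A11 was lost.

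The transcript of NRF2 itself, NFE2L2, did not pass the test. Its 77.7 to 93.4 CPM in untreated cells overlapped with 81.3 to 91.7 CPM under WA (log2 fold change 0.02, SE 0.13, edgeR adjusted p = 0.96). Of 9 tested genes of the NRF2 circuit 4 rose, including its dimerization partners MAFF (1.19, SE 0.29) and MAFG (0.73, SE 0.16), but none did so without the passage 7 pair. Among the 4 tested metallothionein and zinc response genes none rose, and the zinc exporter SLC30A1 fell by 0.49 (SE 0.15, edgeR adjusted p = 0.044), a call that was lost in 8 of 9 leave-outs.

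Among 20 tested genes of the integrated stress response, 9 rose and none fell (median log2 fold change 0.81). DDIT4, an mTORC1 inhibitor also known as REDD1, was at 29.4, 33.9 and 38.2 CPM untreated and at 228, 306 and 748 CPM with WA in passages 4, 6 and 7. PPP1R15A, the phosphatase subunit GADD34 that ends the response, went from 52.5, 35.9 and 38.2 to 180, 185 and 1123 CPM. CHAC1, a glutathione-degrading enzyme, went from 8.95, 13.0 and 8.92 to 39.8, 53.5 and 253 CPM. In these 3 genes the groups did not overlap and the passage 7 culture lay highest. Their log2 fold changes were 3.66 (SE 0.54, edgeR adjusted p = 6.9e-04), 3.55 (SE 0.68, edgeR adjusted p = 0.0040) and 3.49 (SE 0.94, edgeR adjusted p = 0.025). Without the passage 7 pair only 3 of the 20 genes passed, the list median was 0.61, and CHAC1 was at 2.11 (edgeR adjusted p = 0.29). With passage as block, 14 rose, where 14.7% of all tested genes did so.

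Amino acid transporters partly overlap with this programme, and 4 of 17 tested genes rose, while none fell. They include SLC3A2, the heavy chain shared by several transporters, by a log2 fold change of 1.64 (SE 0.34, edgeR adjusted p = 0.0070), and SLC7A5, its partner for leucine import, by 1.15 (SE 0.26, edgeR adjusted p = 0.011). No member passed without the passage 7 pair. None of the 20 cytosolic aminoacyl-tRNA synthetase genes rose, and LARS and QARS fell by 0.43 (SE 0.10) and 0.32 (SE 0.10) on the log2 scale, calls that were both lost without the passage 7 pair.

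Of 28 tested genes of the unfolded protein response and of folding in the endoplasmic reticulum (ER), 2 rose and 1 fell, with a median log2 fold change of 0.03. DNAJB9, an ER co-chaperone, rose by 0.90 (SE 0.12, edgeR adjusted p = 4.6e-04) and DNAJC3 by 0.52 (SE 0.15), whereas the ER oxidase ERO1A fell by 0.50 (SE 0.14). Of these, only DNAJB9 was called without the passage 7 pair. None of 30 proteasome subunit genes rose and 1 fell, PSMB5, which encodes the subunit bound by bortezomib (log2 fold change -0.42, SE 0.11, edgeR adjusted p = 0.023, and 0.17 without the passage 7 pair). The proteasome median was -0.17, and 0 of the 30 fold changes lay above 0.

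Genes for ubiquitin, ZFAND proteins and autophagy receptors, which tag and sort damaged proteins, gave 6 rises and no fall among 23 tested. ZFAND2A, a proteasome-associated protein also called AIRAP, was at 17.5, 21.3 and 22.3 CPM in untreated cells and at 123, 154 and 364 CPM with WA in passages 4, 6 and 7. It rose in every pair (log2 fold change 3.39, SE 0.38, edgeR adjusted p = 1.1e-04). GABARAPL1, of the autophagosome membrane, rose by 1.29 (SE 0.19, edgeR adjusted p = 6.3e-04).

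Immediate early genes respond to stress kinases within minutes. Of 10 AP-1 subunits 4 rose and none fell (median log2 fold change 1.30), and of 9 EGR, IER and NR4A genes 4 rose and none fell (median 1.31). JUN was at 51.5, 34.0 and 24.8 CPM untreated and at 120, 95.1 and 381 CPM with WA in passages 4, 6 and 7, with a log2 fold change of 2.43 (SE 0.53, edgeR adjusted p = 0.0081). FOSB rose by 3.33 (SE 0.64) and the nuclear receptor NR4A1 by 2.37 (SE 0.38, edgeR adjusted p = 0.0013). Untreated levels of JUN and FOSB were highest in passage 4 and lowest in passage 7. Without the passage 7 pair 1 of the 10 and 2 of the 9 genes passed, and JUN and FOSB were no longer called.

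Among 8 dual-specificity phosphatases, which switch off MAP kinases, 2 rose and 1 fell. DUSP1 rose by 2.26 (SE 0.48, edgeR adjusted p = 0.0076), from 26.9, 18.0 and 10.4 to 70.4, 47.0 and 147 CPM, while DUSP4 fell by 0.74 (SE 0.22, edgeR adjusted p = 0.036), and no member passed without the passage 7 pair. Kruppel-like factors went both ways, since 4 of 14 rose and 3 fell. KLF2, a quiescence factor of B cells, rose by 1.69 (SE 0.28, edgeR adjusted p = 0.0015), and KLF13 fell by 1.04 (SE 0.25, edgeR adjusted p = 0.015, and 0.062 without the passage 7 pair). Feedback inhibitors of receptor signalling gave 5 rises and 3 falls among 21 genes, with RGS2, an inhibitor of G protein signalling, higher by 1.92 (SE 0.26, edgeR adjusted p = 3.4e-04) and PIM2, a survival kinase of myeloma cells, lower (1743, 1874 and 2080 CPM untreated, 1000, 1103 and 786 CPM with WA, log2 fold change -0.98, SE 0.14, edgeR adjusted p = 4.6e-04).

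The smallest adjusted p was shared by HSPH1, an entry of HSPA1B and P4HA2, which encodes a prolyl hydroxylase of collagen (chromosome 5, 131525840 to 131631008, minus strand, GRCh37). It was at 3.90, 4.23 and 4.66 CPM in the untreated and at 71.9, 66.4 and 77.8 CPM in the WA cultures of passages 4, 6 and 7. The 3 pairs gave nearly the same increase, and the log2 fold change of 4.08 (SE 0.24, edgeR adjusted p = 5.4e-07) stayed between 4.01 and 4.15 under all alternatives. P4HA1, its paralog, rose by 1.54 (SE 0.15, edgeR adjusted p = 2.3e-05). SERPINH1, the collagen chaperone HSP47, was at 4.84, 3.57 and 4.31 CPM untreated and at 28.1, 36.3 and 345 CPM with WA, so that its log2 fold change of 5.0 (SE 1.00, edgeR adjusted p = 0.0052) fell to 2.95 without the passage 7 pair (edgeR adjusted p = 0.070). COL1A1, a collagen gene among the 5 stromal cell markers examined and named here after its values were seen, rose from 45, 36 and 25 reads to 166, 93 and 294 reads (log2 fold change 2.46, SE 0.47, edgeR adjusted p = 0.0039), and was at 1.73 without the passage 7 pair (edgeR adjusted p = 0.071). The other 4 stromal markers, COL1A2, COL3A1, DCN and LUM, stayed at or under 3 reads in every MM1R culture, and the summed level of the 5 was 1.52 to 2.34 CPM in the untreated and 5.29 to 17.9 CPM in the WA cultures.

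Among 13 tested factors of bone disease and angiogenesis, 2 rose and 1 fell. PGF, the placental growth factor of the VEGF family, had no read in any untreated culture and 177, 160 and 236 reads with WA in passages 4, 6 and 7, at least 66.2-fold higher. VEGFA rose by a log2 fold change of 1.19 (SE 0.27, edgeR adjusted p = 0.011), a call that was lost without the passage 7 pair. DKK1, the Wnt antagonist by which myeloma cells suppress osteoblasts, fell in all pairs from 7.34, 5.38 and 3.09 CPM to 0.907, 0.394 and 0.608 CPM (log2 fold change -3.03, SE 0.38, edgeR adjusted p = 2.0e-04).

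Chemokines, cytokines and their receptors supplied several of the largest decreases, with 3 rises and 5 falls among 20 tested genes. CCR2, the receptor for CCL2, was at 24.5, 23.9 and 19.8 CPM in the untreated and at 6.72, 3.99 and 3.71 CPM in the WA cultures of passages 4, 6 and 7. Its log2 fold change was -2.23 (SE 0.36, edgeR adjusted p = 0.0012). CXCL10, an interferon-induced chemokine, fell by 1.76 on the log2 scale (SE 0.43, edgeR adjusted p = 0.015, and 0.12 without the passage 7 pair) while IL12A, an interleukin subunit, had a log2 fold change of -2.22 (SE 0.29, edgeR adjusted p = 2.7e-04). CCL3L1 fell by 3.06 (SE 0.42), but it shares reads with its near-identical copy CCL3, so that the share of each is uncertain. In contrast, CXCR4, which holds plasma cells in the bone marrow, rose by 1.07 (SE 0.20, edgeR adjusted p = 0.0033), and TNFSF9, the ligand of 4-1BB, by 1.29 (SE 0.25, edgeR adjusted p = 0.0042).

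Few interferon-stimulated genes were called. Of 37 tested members 2 rose and 2 fell (5.41% each, near the 7.55% and 6.46% of all tested genes), with a median log2 fold change of 0.19. IFIT5, an RNA-binding antiviral protein, fell the most of all named genes, from 12.9, 15.0 and 15.6 CPM to 1.49, 1.58 and 0.548 CPM in passages 4, 6 and 7 (log2 fold change -3.57, SE 0.30, edgeR adjusted p = 1.2e-05). RTP4, a receptor-trafficking protein, went from 11.7, 13.2 and 15.3 CPM to 2.45, 2.59 and 2.31 CPM (-2.44, SE 0.25, edgeR adjusted p = 4.0e-05). EIF2AK2, the double-stranded RNA sensor PKR, rose from 85.4, 85.6 and 90.8 CPM to 134, 142 and 118 CPM (0.59, SE 0.11, edgeR adjusted p = 0.0028), and XAF1, a pro-apoptotic factor at under 1 CPM in each untreated culture, rose by 2.86 (SE 0.77, edgeR adjusted p = 0.024), a call that was lost in 6 of 9 leave-outs, including the passage 7 pair. With passage as block, 11 rose and 10 fell, where 14.7% of all tested genes rose and 14.4% fell.

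Of the 4 members called, IFIT5, RTP4 and EIF2AK2 held the interferon-stimulated response element in their promoters, and XAF1 did not. The element was defined as GAAA followed after any 2 bases by GAAA on either strand. It was also found in 16 of 27 promoters of uncalled members of the list (59.3%) and in 996 of all 27305 promoters (3.65%). The element was thus shared by genes that fell, rose or did not pass. The stretches of IFIT5 (chr10:91174245-91174330, plus strand, 3 matches), RTP4 (chr3:187086096-187086172, plus strand, 2 matches) and EIF2AK2 (chr2:37384120-37384164, minus strand, 1 match) are shown to set genes of opposite direction side by side, with the matches in capitals.
IFIT5: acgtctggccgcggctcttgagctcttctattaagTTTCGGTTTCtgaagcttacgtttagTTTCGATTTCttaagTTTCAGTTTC
RTP4: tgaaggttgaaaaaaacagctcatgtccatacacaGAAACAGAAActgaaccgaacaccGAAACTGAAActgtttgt
EIF2AK2: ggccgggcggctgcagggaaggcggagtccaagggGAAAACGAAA

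NF-kB drives survival of myeloma cells. Of 25 tested subunits and targets none rose and 2 fell, which were the subunit genes NFKB1 (110, 101 and 90.7 CPM untreated, 61.5, 64.6 and 50.6 CPM with WA, log2 fold change -0.77, SE 0.11, edgeR adjusted p = 6.8e-04) and RELA (-0.36, SE 0.11, edgeR adjusted p = 0.044). The call of RELA was lost in 8 of 9 leave-outs, including the passage 7 pair, whereas that of NFKB1 was kept in all of them. The list median was 0.21, and with passage as block 8 members rose and 3 fell, against 14.7% and 14.4% of all tested genes. No gene of MHC class I presentation passed among 10 tested (median -0.05).

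Plasma cell regulators went both ways. Among 26 tested genes 3 rose (11.5%) and 5 fell (19.2%), against 7.55% and 6.46% of all tested genes, with a median log2 fold change of -0.23. The list also holds CCND1 and MYCN, which were among those that fell. MYCN had only 19, 12 and 12 reads untreated and 4, 4 and 7 reads with WA in passages 4, 6 and 7. Its call was lost in all 9 leave-outs, including the passage 7 pair. Of the 12 plasma cell markers examined 2 were called, IRF4 lower and SLAMF7 higher. IRF4, a factor on which myeloma cells depend, was at 1138, 1228 and 986 CPM in the untreated and at 547, 549 and 631 CPM in the WA cultures of passages 4, 6 and 7. The groups were apart (log2 fold change -0.96, SE 0.18, edgeR adjusted p = 0.0032), and the call was lost without the passage 6 pair (edgeR adjusted p = 0.070). CCND1, a D cyclin, fell by 1.39 (SE 0.20, edgeR adjusted p = 6.8e-04). BCL6, a repressor of plasma cell differentiation, rose by 2.55 (SE 0.64, edgeR adjusted p = 0.018) and was at 1.97 without the passage 7 pair (edgeR adjusted p = 0.18). MXD1, which competes with MYC for their shared partner MAX, rose by 2.10 (SE 0.31, edgeR adjusted p = 7.4e-04).

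MYC was at 627, 666 and 758 CPM in untreated cells of passages 4, 6 and 7 and at 418, 455 and 88.5 CPM with WA. It was lower in each pair, by log2 ratios of -0.58, -0.55 and -3.09, yet it did not pass the test (log2 fold change -1.09, SE 0.47, edgeR adjusted p = 0.14). With passage as block the adjusted p was 0.034. Without the passage 7 pair the change was -0.54 (edgeR adjusted p = 0.50). Surface antigens changed little, since of 17 tested the adhesion target SLAMF7 rose by 0.40 (SE 0.11, edgeR adjusted p = 0.026, and 0.17 without the passage 7 pair) and CD48 fell by 0.66 (SE 0.10, edgeR adjusted p = 0.0011).

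The B-cell receptor pathway was of interest because it holds BTK, the kinase targeted by ibrutinib. Of its 57 tested genes 7 rose and 7 fell (12.3% each, against 7.55% and 6.46% of all tested genes), and the median log2 fold change was -0.21. With passage as block 9 rose and 17 fell, where 14.7% of all tested genes rose and 14.4% fell. BTK (chromosome X, 100604326 to 100645784, minus strand, 19 exons, GRCh37) was at 67.1, 63.2 and 61.4 CPM in the untreated and at 45.0, 49.1 and 40.9 CPM in the WA cultures of passages 4, 6 and 7. Each pair showed a decrease and the groups did not overlap (log2 fold change -0.51, SE 0.15, edgeR adjusted p = 0.044). The fold change stayed between -0.56 and -0.42 under all alternatives, but the call was lost in all 9 leave-outs, with adjusted p-values of up to 0.23 in edgeR, and it was kept with passage as block (edgeR adjusted p = 0.014). PIK3CG and PRKCD, kinases downstream of the receptor, fell by 0.88 (SE 0.14, edgeR adjusted p = 0.0010) and 0.86 (SE 0.15, edgeR adjusted p = 0.0019), while PIK3R1, a regulatory subunit of PI3K, rose by 1.02 (SE 0.16, edgeR adjusted p = 0.0013). Without the passage 7 pair 2 members rose and 2 fell.

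MM1R cells lack a GC response, and the GC receptor gene NR3C1 was low and did not pass the test, with 14.4, 13.9 and 15.0 CPM untreated and 17.7, 13.1 and 11.9 CPM under WA (log2 fold change -0.02, SE 0.22, edgeR adjusted p = 0.97). Of the list that holds it, 7 of 21 tested receptor, coregulator and target genes rose and none fell (median 0.40), and 3 rose without the passage 7 pair. TSC22D3, known as GILZ and a classical GC target, was at 98.4, 107 and 86.6 CPM in the untreated and at 596, 640 and 1607 CPM in the WA cultures of passages 4, 6 and 7 (log2 fold change 3.28, SE 0.53, edgeR adjusted p = 0.0013). Of the same list, DUSP1, KLF9 (1.15, SE 0.29) and RGS2 rose as well, of which only RGS2 was called without the passage 7 pair, and these genes also answer to other stimuli.

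Ribosome biogenesis stood out among the decreases. Of 47 tested genes for nucleolar factors and RNA polymerase I subunits 38 fell and none rose, against 6.46% of all tested genes that fell, and the median log2 fold change was -0.70. The 3 largest decreases were those of URB2, a nucleolar factor for the large ribosomal subunit (52.4, 53 and 58.4 CPM untreated, 25.3, 21.2 and 11.8 CPM with WA, log2 fold change -1.49, SE 0.28, edgeR adjusted p = 0.0037), of RRS1, also for the large subunit (-1.48, SE 0.22, edgeR adjusted p = 8.5e-04), and of BYSL, for the small subunit (-1.34, SE 0.20, edgeR adjusted p = 6.8e-04). Untreated and WA cultures did not overlap for 44 of the 47 genes, against 33.3% of all tested genes. The decrease was present in each pair, with medians of -0.58, -0.59 and -0.90 in passages 4, 6 and 7. The number of calls depended on the cultures, since between 20 and 39 genes passed with 1 MM1R library left out and 9 without the passage 7 pair, where the median was -0.57 and URB2 was at an edgeR adjusted p of 0.051. With passage as block 43 fell, against 14.4% of all tested genes.

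By contrast, the genes for the ribosomal proteins themselves did not pass in either direction (0 of 78 tested, median -0.01), although 1 rose and 2 fell with passage as block. Small nucleolar RNA host genes gave 3 falls among 23, led by SNHG12 (-1.04, SE 0.22, not called without the passage 7 pair) and SNHG3 (-1.02, SE 0.16). Promoters were found for 31 of the 38 ribosome biogenesis genes that fell, and 12 of the 31 (38.7%) held the letters CACGTG, the E-box bound by MYC and related factors, against 2030 of all 27305 promoters (7.43%). The letters were also held by 1 of 7 promoters of uncalled list members (14.3%) and by 15.3% of the promoters found for all lower genes. This motif was chosen after the data had been seen and is given as a description only.

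**Figure D3:**
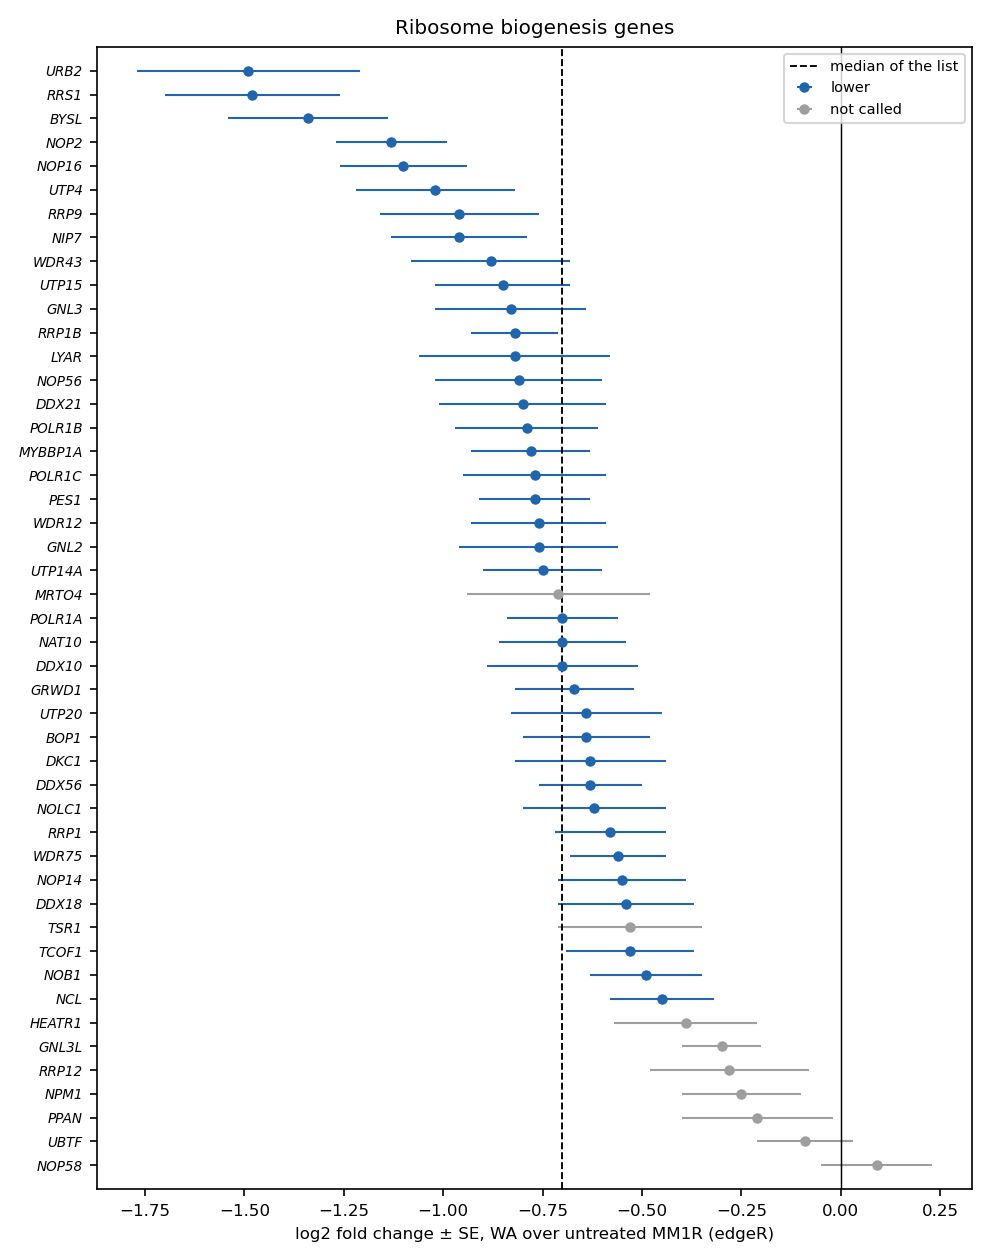
Log2 fold change with WA in MM1R (horizontal axis) of the 47 tested ribosome biogenesis genes, in order of size, with the SE of edgeR as bars. Blue points were lower at an adjusted p under 0.05, grey points were not called, and the dashed line is the list median of -0.70. All genes but 1 lie left of 0.

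Cell cycle and death genes changed in small numbers. CDKN1A, the cell cycle inhibitor p21, was at 218, 287 and 339 CPM in untreated cells and at 474, 685 and 1327 CPM with WA in passages 4, 6 and 7 (log2 fold change 1.56, SE 0.45, edgeR adjusted p = 0.033). Its level under WA exceeded that of the untreated culture in every pair, but the call was lost in 8 of 9 leave-outs. Of 22 tested p53 targets 3 rose and 1 fell, and of 16 BCL2 family genes 3 rose and none fell. The pro-apoptotic BBC3 and PMAIP1, known as PUMA and NOXA, rose by 1.75 (SE 0.34, edgeR adjusted p = 0.0045) and 1.35 (SE 0.36, edgeR adjusted p = 0.023), and the anti-apoptotic MCL1 by 0.52 (SE 0.13, edgeR adjusted p = 0.015). Each of these lost its call without the passage 7 pair.

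Among 39 genes of G2 and mitosis 1 rose and 2 fell, CCNF and PLK1, by 0.73 (SE 0.17, edgeR adjusted p = 0.012) and 0.72 (SE 0.17, edgeR adjusted p = 0.012), and neither fall was called without the passage 7 pair. The list median was -0.24, and with passage as block 19 fell and 3 rose, against 14.4% and 14.7% of all tested genes. For the cytoskeleton, of which vimentin is a known binding partner of WA, 3 of 21 genes rose and 2 fell. VIM was lower in each pair (452, 646 and 657 CPM untreated, 353, 464 and 461 CPM with WA), yet the groups overlapped and the test was not passed (log2 fold change -0.46, SE 0.31, edgeR adjusted p = 0.38), whereas with passage as block the adjusted p was 8.7e-04. TUBA1A rose by 1.22 (SE 0.17, edgeR adjusted p = 4.6e-04).

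Chromatin and transcription genes changed in both directions. Of 14 tested replication-dependent histone genes 4 rose and none fell (median 1.62), among them HIST1H1C, from 10.3, 7.52 and 7.11 to 62.3, 20.1 and 26.2 CPM (2.12, SE 0.33, edgeR adjusted p = 0.0011), and HIST1H2AC, by 3.07 (SE 0.60, edgeR adjusted p = 0.0044). The passage 4 culture lay highest for both. Of 22 DNA methylation and Polycomb enzymes 3 rose, namely KDM6B (0.96, SE 0.23), TET2 (0.64, SE 0.18) and DNMT3B (0.55, SE 0.17), and 2 fell. The maintenance methyltransferase DNMT1 fell by 0.61 (SE 0.12, edgeR adjusted p = 0.0041), from 275, 258 and 239 to 155, 179 and 173 CPM, and its partner UHRF1 by 0.96 (SE 0.20, edgeR adjusted p = 0.0070). Without the passage 7 pair, KDM6B, TET2 and UHRF1 were not called. CDK9, the kinase that releases paused RNA polymerase II, fell by 0.86 (SE 0.16, edgeR adjusted p = 0.0030), and its inhibitor HEXIM1 rose by 0.86 (SE 0.14, edgeR adjusted p = 0.0016). Of 379 numbered zinc finger genes, mostly repressors, 40 rose (10.6%) and 12 fell (3.17%), against 7.55% and 6.46% of all tested genes. Their median was 0.20. Without the passage 7 pair 9 of 384 tested members rose, where 418 of all 14371 tested genes did.

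In metabolism, 5 of 29 genes of glycolysis and hypoxia rose, P4HA1 and VEGFA among them, and 1 fell. That was HK2, the hexokinase that commits glucose to glycolysis (79.5, 77.4 and 68.1 CPM untreated, 28.1, 25.6 and 18.3 CPM with WA, log2 fold change -1.64, SE 0.29, edgeR adjusted p = 0.0023). Cholesterol and fatty acid synthesis gave 1 rise, HSD17B7 (1.56, SE 0.22, edgeR adjusted p = 6.0e-04), and 2 falls among 33. Oxidative phosphorylation gave 1 fall among 75. NOTCH1, the receptor of the Notch pathway, rose in all pairs from 78.1, 73.9 and 67.0 to 235, 247 and 184 CPM (1.61, SE 0.16, edgeR adjusted p = 3.7e-05).

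The size of the change differed between the 3 pairs of cultures, whereas the direction of called genes did not, which the choice of called genes favours. Of the 1063 genes that rose, 691 had their largest rise in passage 7, 212 in passage 4 and 160 in passage 6, and of the 910 that fell, 591 had their largest fall in passage 7. The median log2 ratio of the higher genes was 0.73, 0.72 and 0.98 in passages 4, 6 and 7, and that of the lower genes -0.55, -0.55 and -0.72. The list median changed most in passage 7 for the integrated stress response (0.53, 0.66 and 1.24), AP-1 (0.74, 1.01 and 1.85) and ribosome biogenesis. It did not for HSP70 and HSP110 (1.08, 1.35 and 1.27), HSP90 and co-chaperones (1.09, 1.15 and 0.94) or NRF2 targets (0.21, 0.45 and 0.30). These medians do not describe every heat shock gene. HSPA6, HSPH1, DNAJB1, BAG3 and HSPB1 rose most in passage 7, whereas HSP90AB1, CHORDC1, HSPE1 and TCP1 did not. The median of the interferon-stimulated genes changed sign (0.39, 0.09 and -0.16). These values describe 1 culture each and were not tested.

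**Figure D4:**
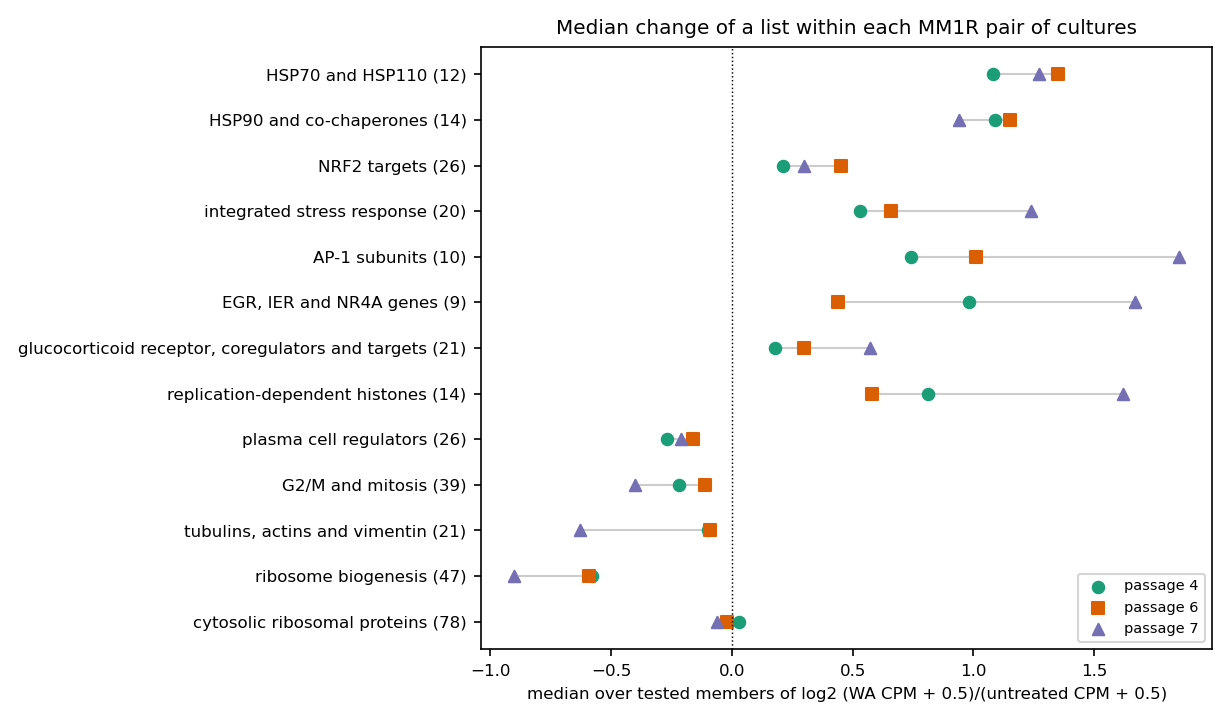
Median over the tested members of 13 gene lists of the log2 ratio of WA to untreated CPM (pseudocount 0.5, horizontal axis) within the pair of passage 4 (circles), 6 (squares) and 7 (triangles). Passage 7 lies furthest from 0 for the integrated stress response, AP-1 and ribosome biogenesis lists, but not for HSP70 and HSP110, HSP90 or NRF2 targets.

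A few genes at or near 0 reads in untreated cells were detected with WA. Of 24421 entries with a read in MM1R, 18 (0.0737%) had at most 3 reads in each untreated culture and at least 10 in each WA culture, and 0 showed the reverse. Besides PGF and HSPA7, the highest were RFPL2, at 0, 0 and 2 reads untreated and 108, 93 and 134 with WA (at least 38.6-fold higher), the long noncoding RNA LINC00519 (at least 27.6-fold higher) and PPP1R26-AS1 (at least 13.7-fold higher). PPP1R26-AS1 is antisense to PPP1R26, and since the strand setting of the counting is not given in the sources used here, its reads and those of its partner cannot be told apart. In MM1S, 7 of the 18 met the same limits. These bounds cover counting error only.

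Genes that rose and genes that fell also differed in their untreated level. The median untreated level was 15.2 CPM for higher genes, 61.0 CPM for lower genes and 19.1 CPM for genes not called. The annotation matched 946 of the 1063 higher, 879 of the 910 lower and 10676 of the 12112 uncalled genes. Among the protein-coding genes matched (884, 860 and 9937), the median gene length was 36.7 kb for higher, 24.7 kb for lower and 36.8 kb for uncalled genes, while the median number of exons was 9 in each set. These properties were not tested, and the power of a count test grows with the level.

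To see whether any of these changes was particular to the resistant line, the WA effect in MM1R was compared with that in MM1S as an interaction. In MM1S, 1476 genes were called (10.5%), 880 higher (6.25%) and 596 lower (4.23%). By edgeR 0 of 14085 genes differed between the lines, while 97 had an unadjusted p under 0.05. DESeq2 called 1 gene, and 6 with passage as block, while 11 passed in edgeR when genes with low counts were kept. The smallest p was that of DNAJA4, a DNAJ co-chaperone with 1 to 6 reads in all 6 MM1R cultures and a rise from 7, 5 and 7 reads to 285, 102 and 359 reads in MM1S cultures of passages 16, 22 and 23 (DESeq2 adjusted p of the difference = 0.0014). In MM1R, DNAJA4 could hardly be detected at this depth. Among the 11 genes of the unfiltered fit, CHAC1 (3.45 against 1.87), PPP1R15A (3.52 against 2.60), JUN (2.40 against 1.40), DUSP1 (2.23 against 1.04) and KLF2 (1.66 against 0.77) had the larger log2 fold change in MM1R. None of these genes passed for the difference in DESeq2, with or without block. In the filtered edgeR fit their unadjusted p was 0.035 to 0.31. The MM1R calls of CHAC1, JUN and DUSP1 were also lost without the passage 7 pair (edgeR adjusted p = 0.29, 0.13 and 0.12).

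TNFRSF10B and EDA2R, receptors of the p53 response, had log2 fold changes of 0.00 (SE 0.14) and 0.26 (SE 0.17) in MM1R against 0.87 and 1.31 in MM1S, and PHLDA3, another p53 target, 0.74 against 2.33. Their difference passed in DESeq2 with passage as block (adjusted p = 0.0098, 0.0098 and 4.4e-05). In edgeR it did not pass with the filter on low counts, and without it EDA2R (adjusted p = 0.019) and PHLDA3 (adjusted p = 4.0e-06) passed. PHLDA3 was higher with WA in each MM1R pair, and with passage as block its rise in MM1R passed (edgeR adjusted p = 0.0026). List medians in MM1R and MM1S were 1.65 and 1.35 for HSP70 and HSP110, 0.39 and 0.41 for NRF2 targets, 0.81 and 0.64 for the integrated stress response and -0.70 and -0.51 for ribosome biogenesis. BTK had log2 fold changes of -0.51 and -0.52, and the difference of 0.01 (SE 0.23) did not pass in edgeR.

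**Figure D5:**
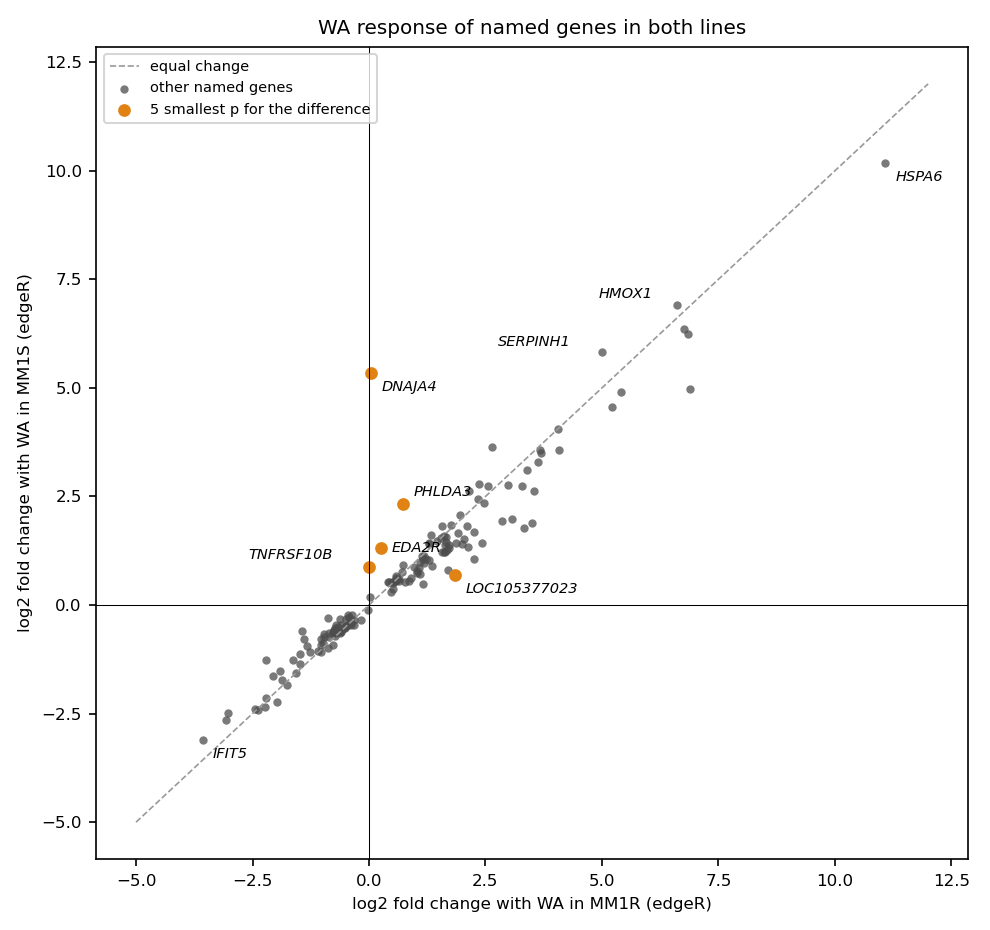
Log2 fold change with WA in MM1R (horizontal axis) and MM1S (vertical axis) for 156 named genes, from the same edgeR fit. Left out are genes with at most 3 reads in every untreated MM1R culture, and HSPB8, which had no read in MM1S. Most points lie near the dashed line of equal change, and the orange points are the 5 genes with the smallest p for the difference, of which DNAJA4 is farthest from the line. DNAJA4 had at most 3 reads in every MM1R culture with WA, so that its position on the horizontal axis is uncertain.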

How the data were processed

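RNA from MM1R and MM1S cultures was sequenced, and the authors mapped the reads to hg19 with STAR (v2.7.3a) and deposited unnormalized read counts for each gene. The annotation and strand setting of the counting are not given in the sources used here. A further deposited table of normalized values was not used. Every entry names a gene, and entries with a copy number after the symbol (4743) held 0.187% of the reads.

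Entries were filtered with filterByExpr (minimum count 10) and scaled by TMM, and WA was tested with the quasi-likelihood test of edgeR (4.0.16, R 4.3.3) fitted to all 12 libraries together, and p-values were adjusted over 14085 genes (Benjamini-Hochberg, threshold 0.05). The interaction with MM1S came from the same fit. Ratios within pairs used CPM with a pseudocount of 0.5. Genes with at most 3 reads in every culture of a group were treated as at the floor. Intervals and floors cover counting error only, since reads carry no molecular identifiers.

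The members and the 46 gene lists were chosen with earlier results of these data known. Named genes are the 12 largest rises and 12 largest falls among called genes averaging 1 CPM or more whose 3 pairs moved alike, the 5 smallest p, up to 3 rises and 3 falls per list, BTK, NR3C1, MYC, IRF4, HSF1, NFE2L2, VIM and CDKN1A, up to 10 genes at the floor without WA and above it with WA, and the 5 smallest p for the difference between lines. COL1A1, a stromal marker, is named in addition, after its values were seen.

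Same-passage cultures deviated together from their group means (correlations 0.43, 0.22 and 0.25 for passages 4, 6 and 7, at most 0.11 for other pairs), and the labels give the shared passage, so the fit with passage as replicate block was treated as paired. Replicates were compared for repeated libraries, and their chi-square over degrees of freedom was 12.2 to 45.0, far above counting error.

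On simulated counts of the WA comparison (13660 genes), edgeR recovered 72.7% of genes changed by a log2 of 1 and 89% of those changed by 2, with 5.29% false calls, and DESeq2 75.8% and 88% with 13.3%. The simulated cultures held no passage effect, and only 99 genes were changed by a log2 of 1 and 100 by 2. These rates need not hold for the real cultures. Alternatives were DESeq2 (1.42.0), its size factors, no filter, at least 10 reads in every library, the 6 MM1R libraries alone, replicate block, a test against a 1.5-fold change, an adjusted p of 0.01 and libraries or pairs left out. Promoters are those of RefSeq, matched by symbol for 76.4% of tested genes, so that no motif share over all tested genes is given. The antioxidant response element (TGACNNNGC) was held by 3 of 8 promoters of risen NRF2 targets and 3 of 13 uncalled ones. The C/EBP-ATF element (TGATGNAAT) was held by 0 of 11 promoters of risen integrated stress response and transporter genes and 0 of 21 uncalled ones. The AP-1 site (TGANTCA) was held by 1 of 13 promoters of risen immediate early, DUSP and Kruppel-like genes and 0 of 17 uncalled ones. Among all 27305 promoters the shares were 13.6%, 1.02% and 7.76%. Coordinates are GENCODE on GRCh37.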

Additional observations from a re-analysis of the deposited data

How the results depend on the processing

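The 1973 genes changed by WA became 4094 with passage as replicate block in edgeR (2066 higher, 2028 lower) and 3424 in DESeq2 (1866 lower), 263 against a 1.5-fold change (220 higher, 43 lower) and 812 at an adjusted p of 0.01 (469 and 343). With 1 library left out, totals ranged from 950 to 2099 (515 to 1129 higher, 406 to 970 lower), and with both cultures of a passage left out they were 1230 (passage 4, 492 lower), 645 (passage 6, 430 higher, 215 lower) and 639 (passage 7, 418 and 221), where fewer samples remain. Between 1883 and 2483 genes passed under the other settings. The higher share of the calls was 53.9%, and 45.5% in DESeq2 with replicate block. Of 161 called genes that are named, 57 passed under every setting that tested them and 0 changed direction. Against 0 in edgeR, 11 genes differed between the lines with no filter on low counts, 1 by DESeq2 and 6 by DESeq2 with replicate block. Instead of 18, 3 genes were detected only with WA when no untreated read was allowed, and 5 with at least 30 reads in every WA culture. Genes near 0 changed sign: NFE2L2 to -0.01 with no filter and 0.00 in the 6 MM1R libraries (-0.06 to 0.12 with libraries left out), NR3C1 to 0.02 with at least 10 reads (-0.21 to 0.14), TNFRSF10B to -0.02 with no filter and -0.01 under DESeq2's size factors, DESeq2, its block and the 6 libraries (-0.11 to 0.11), and DNAJA4 between -0.41 and 1.52. The causes were not tested. The replicate block moved MYC, VIM and PHLDA3 past the threshold. Depth limits genes under about 10 reads a culture.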
